A study of Arabidopsis thaliana with 24 samples.

Results

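The xyloglucan endotransglucosylase/hydrolase (XTH) family of Arabidopsis thaliana, XTH1 to XTH33, was followed through an abscisic acid (ABA) experiment on roots. Its 33 genes were taken by their locus identifiers from a count table of 34218 features. All 33 were found, and the locus of each carries the same XTH name in RefSeq's gene table for TAIR10.1. Total RNA had been sequenced from roots of 5-day-old F1 seedlings kept for 8 h on 1 µM ABA or on mock plates. Every seedling carried UAS::abi1-1, a transgene for a dominant form of the phosphatase ABI1 that blocks ABA signalling in the cells that make it, and the transgene is made only where an enhancer trap supplies its activator. The crosses were UAS::abi1-1xC24, which has no driver and is the control, and the driver crosses UAS::abi1-1xJ0571, UAS::abi1-1xJ1721 and UAS::abi1-1xQ0990. They are called C24, J0571, J1721 and Q0990 here. Each of the 8 groups of line and treatment held 3 libraries, each from a pool of seedlings. Whether the pools were sown separately is not stated in the labels, so p-values measure only the spread among pools, which may be technical. J0571 is widely used as a ground tissue driver and Q0990 as a stele driver, but the labels name no cells for a line.

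Xyloglucan is a branched polysaccharide that coats and links cellulose microfibrils in the growing plant wall. XTH enzymes cut a xyloglucan chain and join the cut end to another chain or, in a few members, to water, so they can both loosen and rebuild the wall. In the Arabidopsis root the family is known from the elongation zone, from root hairs and from differentiating vascular cells, and ABA slows root growth. By descent the genes fall into subfamily I (XTH1 to XTH11), subfamily II (XTH12 to XTH26) and subfamily III (XTH27 to XTH33), the last of which holds the hydrolase XTH31.

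The results below turn on 2 sets of close copies, and stretches of 250 bases upstream of their annotated transcription starts are shown so that the copies can be compared. XTH12 (AT5G57530), XTH13 (AT5G57540) and XTH14 (AT4G25820) rose with ABA in C24, and XTH26 (AT4G28850), a root hair gene, is shown with them. XTH16 (AT3G23730) is the gene whose response was called different between lines, and XTH15 (AT4G14130) is its nearest copy. The stretches come from the TAIR10.1 RefSeq genome and annotation by locus, 5′ to 3′ on the gene's strand. Whether these stretches overlap another annotated gene, or have the same bases in the crosses that were sequenced, was not checked. They lie at chr5:23301690-23301939 (minus strand) for XTH12, chr5:23304096-23304345 (minus strand) for XTH13, chr4:13130041-13130290 (plus strand) for XTH14, chr4:14244040-14244289 (plus strand) for XTH26, chr4:8138393-8138642 (minus strand) for XTH15 and chr3:8549787-8550036 (plus strand) for XTH16. Capitals mark ACGTG or its reverse complement CACGT, the core of the ABA-responsive element bound by ABF and ABI5 factors.
XTH12: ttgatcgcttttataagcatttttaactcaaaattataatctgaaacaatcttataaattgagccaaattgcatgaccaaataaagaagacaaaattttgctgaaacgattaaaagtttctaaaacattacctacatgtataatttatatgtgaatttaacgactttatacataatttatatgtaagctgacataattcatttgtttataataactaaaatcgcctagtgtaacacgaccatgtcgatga
XTH13: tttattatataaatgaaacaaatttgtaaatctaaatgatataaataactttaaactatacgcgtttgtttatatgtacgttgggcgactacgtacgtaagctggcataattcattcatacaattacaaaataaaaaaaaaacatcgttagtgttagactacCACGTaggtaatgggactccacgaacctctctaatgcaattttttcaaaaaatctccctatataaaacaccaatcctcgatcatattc
XTH14: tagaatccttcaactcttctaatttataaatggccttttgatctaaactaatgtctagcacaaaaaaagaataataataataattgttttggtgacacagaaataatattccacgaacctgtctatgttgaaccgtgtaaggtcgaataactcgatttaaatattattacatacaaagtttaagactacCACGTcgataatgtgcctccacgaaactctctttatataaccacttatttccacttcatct
XTH26: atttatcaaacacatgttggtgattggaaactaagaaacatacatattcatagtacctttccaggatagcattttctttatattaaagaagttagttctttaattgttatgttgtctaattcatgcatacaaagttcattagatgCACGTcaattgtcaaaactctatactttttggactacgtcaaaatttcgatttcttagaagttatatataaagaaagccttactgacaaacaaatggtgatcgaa
XTH15: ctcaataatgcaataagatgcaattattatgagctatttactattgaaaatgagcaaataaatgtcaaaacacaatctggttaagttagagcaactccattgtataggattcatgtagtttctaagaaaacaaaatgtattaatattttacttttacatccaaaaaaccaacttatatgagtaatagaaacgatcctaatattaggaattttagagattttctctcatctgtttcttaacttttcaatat
XTH16: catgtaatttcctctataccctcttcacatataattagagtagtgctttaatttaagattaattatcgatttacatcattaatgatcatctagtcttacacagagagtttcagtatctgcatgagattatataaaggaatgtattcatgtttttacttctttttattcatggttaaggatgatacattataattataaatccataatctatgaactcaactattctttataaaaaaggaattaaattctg

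XTH13, XTH14 and XTH26 each hold 1 core match in this stretch, which begins 88, 61 and 105 bases before the start. XTH12, XTH15 and XTH16 hold none. The longest run of bases that the XTH13 and XTH14 stretches share is agactacCACGT, 12 bases that include the match, while the longest run shared by XTH12 and XTH13 is 11 bases and that shared by XTH15 and XTH16 is 8 bases. Over the family, 5 of 33 stretches (15.2%) hold the core on either strand, the other two being XTH6 and XTH25, against 22.9% of 27443 protein-coding genes. Among the 15 members that rose with ABA in C24, 3 hold it (20%), a share near that of all genes. Among the 6 that fell, 0 hold it. The longer G-box CACGTG, which contains the core, is in none of the 33 and in 6.49% of all. A match is a description of the letters and not a bound site.

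The transcripts are similar enough in places that the counting matters. Aligned over their coding sequences, XTH17 and XTH18 were 92.2% identical, XTH12 and XTH13 89.7%, XTH18 and XTH19 89.2%, XTH22 and XTH23 82.4% and XTH15 and XTH16 81.7%. Stretches of 100 exon bases that occur elsewhere in the TAIR10.1 genome were found only for XTH21, where they made up 2.22% of such stretches. Shorter identical stretches, the authors' handling of reads that map to several places and their strand setting were not examined, so values of XTH17 to XTH19 and of XTH12 and XTH13 are uncertain to that extent. XTH24, XTH18 and XTH19 stand next to each other on the same strand of chromosome 4, as do XTH23 and XTH14. XTH13, XTH25 and XTH22 stand in a row on chromosome 5.

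Library totals ran from 38542817 to 61555387 counts. Treatment parted the libraries on the first principal component (53.1% of the variance), and the second (5.57%) set mock library 1 of each line apart from the other mock libraries of that line, though not on the same side. Its score was above theirs in C24 (40.4 against 3.31 and 7.89) and Q0990 (27.4 against 1.25 and 3.08), and below theirs in J0571 (-30.5 against -13.3 and -16.4) and J1721 (-15.9 against 8.66 and 2.86). Summed shoot and chloroplast transcripts were also highest in C24 mock library 1, at 50.5 CPM (counts scaled to a common library size) where all other libraries lay between 12.5 and 41.4 CPM. Results that hang on these libraries are given with and without them. ABI1 itself rose in all 4 lines, by a log2 change of 1.41 in J0571 to 1.83 in Q0990. Its mock level was not called different from C24 in any driver line, and its counts do not part transgene from native transcript.

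Of the 33 genes, 29 had enough counts to be tested. XTH1 had 0 counts in the 24 libraries, XTH3 had 1, XTH6 had 2 and XTH25 had 4, all 4 of them in 1 library. A count of 0 allows up to 3 counts, for counting error only. To compare genes with each other, CPM was divided by exon length in kb. XTH31 (AT3G44990) had the highest level per kb in untreated C24 roots, at 126, 232 and 195 CPM per kb in the 3 libraries, 184 ± 53.5 (SD, n = 3 libraries here and throughout) or 19.3% of the summed family level. XTH8 (AT1G11545), a subfamily I gene, followed with 94.5, 105 and 97.8 CPM per kb. XTH18 (AT4G30280), known from roots, had 91.1, 84.7 and 82.3 CPM per kb. The order of XTH31 above both holds in every C24 mock library. All XTH8 libraries also lay above all XTH18 libraries, with SDs of 5.47 and 4.5. At the other end, XTH29 was at 0.0791 CPM per kb on average, the lowest of the tested genes.

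**Figure D1:**
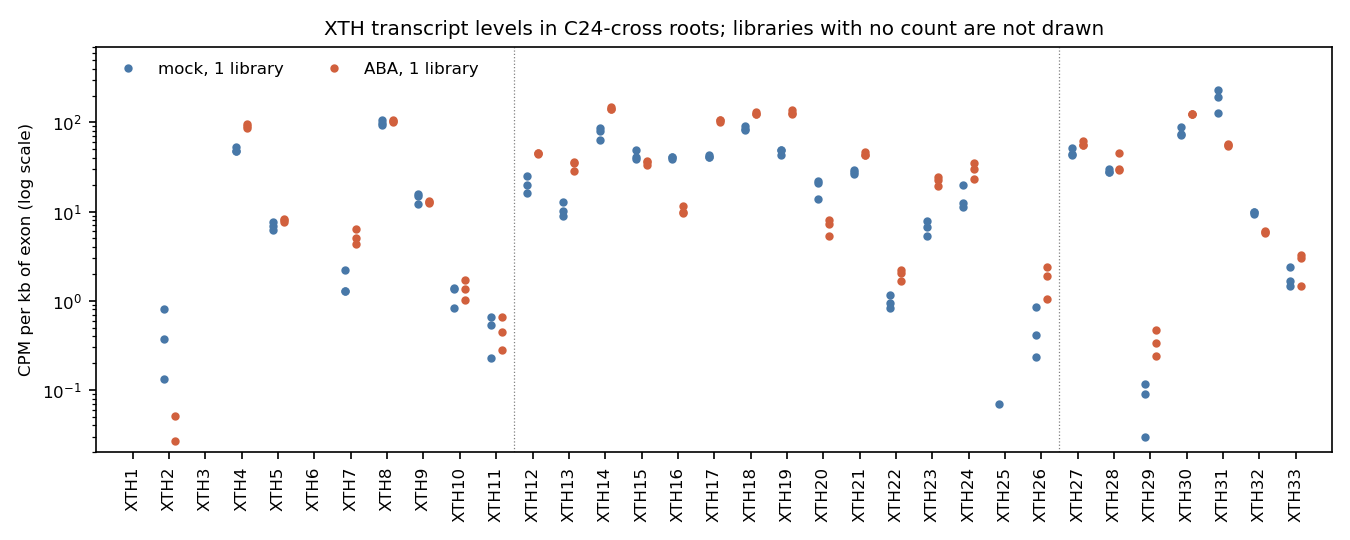
Level of each XTH gene in C24 roots in CPM per kb of exon (log axis), each point 1 library, mock in blue and ABA in orange; dotted lines part subfamilies I, II and III. XTH31 stands highest in mock libraries at 126 to 232 CPM per kb and falls into the range of other members with ABA, where XTH14, XTH19 and XTH18 lead.

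With ABA the order changed. XTH31 went from the first place to the ninth in C24, at 56 ± 1.15 CPM per kb and 4.53% of the summed level. XTH14, a gene of root hair walls, led with 144 ± 4.45 CPM per kb, ahead of XTH19 at 129 ± 6.46 and XTH18 at 127 ± 4.64, which do not differ beyond their spread. XTH31 was also first in the mock roots of the driver lines, with 27% of the summed level in J0571, 23% in J1721 and 19.5% in Q0990, and was seventh or eighth there with ABA. Summed over the family in CPM, the C24 libraries held 1190 to 1360 in mock and 1600 to 1660 with ABA. The Q0990 sums were 1170 to 1410 in mock and 1620 to 1640 with ABA, and the J1721 sums 1350 to 1470 and 1550 to 1640, with no overlap in any of these lines. In J0571 the sums overlapped, at 1450 to 1480 in mock and 1440 to 1600 with ABA.

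Most tested XTH genes responded to ABA, and more of them rose than fell. In C24, 21 of 29 were called, meaning an adjusted p under 0.05 in the quasi-likelihood test of edgeR after Benjamini-Hochberg correction over 21315 genes. Every adjusted p below comes from it unless another tool is named. Of all genes tested, 34.0% were called. Of the 21, 15 rose, where 18.6% of all genes did, and 6 fell, where 15.4% did. The median log2 change of the 29 was 0.56 and their median absolute change 0.92, beside -0.02 and 0.23 over all genes. The driver lines gave 17 called members in J0571, 18 in J1721 and 19 in Q0990, where 24.3%, 28.6% and 31.2% of all genes were called. In J0571, 13 rose and 4 fell, beside 14.4% and 9.87% of all genes. In J1721, 14 rose and 4 fell, beside 15.8% and 12.7%. In Q0990, 14 rose and 5 fell, beside 17.0% and 14.2%. Their median log2 changes were 0.33, 0.46 and 0.40. Fewer cells of a type and less RNA per cell cannot be told apart in whole roots, for any of these changes.

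**Figure D2:**
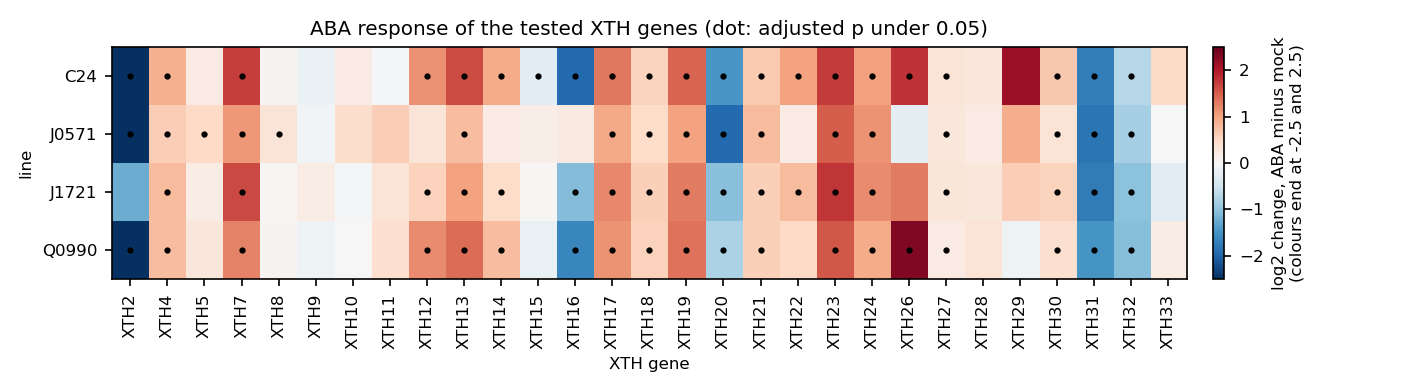
Log2 change with ABA (colour, ABA minus mock, ending at -2.5 and 2.5) of the 29 tested XTH genes in columns, in the 4 lines in rows; a dot marks an adjusted p under 0.05. Of the genes, 11 are red with a dot in all 4 lines and XTH20, XTH31 and XTH32 blue with a dot in all 4, while XTH16 is blue in 3 lines and pale in J0571.

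By pattern, 11 genes rose in all 4 lines (XTH4, XTH7, XTH13, XTH17, XTH18, XTH19, XTH21, XTH23, XTH24, XTH27 and XTH30), 3 fell in all 4 (XTH20, XTH31 and XTH32), 9 were called in some lines and 6 in none (XTH9, XTH10, XTH11, XTH28, XTH29 and XTH33). Of all genes tested, 10.1% were called higher in all 4 lines and 5.65% lower in all 4. Calls were also counted by subfamily. All 14 tested genes of subfamily II were called in C24, 11 higher and 3 lower, with a median log2 change of 1.02. In subfamily I, 2 of 8 rose and 1 fell, with a median of 0.13. In subfamily III, 2 of 7 rose and 2 fell, with a median of 0.32. Over all genes, 18.6% rose and 15.4% fell in C24, and the subfamily I shares are near these. No test was made between subfamilies. Of the genes called in no line, XTH9, known from the shoot apex, XTH10, XTH11, XTH28, known from stamens, and XTH33, whose product is held at the plasma membrane, had log2 changes of -0.17 to 0.47 in C24.

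Among the genes that rose in every line, the largest rises in C24 were those of XTH23 and XTH7. XTH23 (AT4G25810), a subfamily II gene, had 10.9, 9.22 and 7.35 CPM in C24 mock libraries and 33.9, 31.2 and 26.8 CPM with ABA. The groups did not overlap, and the log2 change was 1.75 ± 0.17 (SE; adjusted p = 2.13e-08). It rose by 1.52 in J0571, 1.79 in J1721 and 1.55 in Q0990. XTH7 (AT4G37800) of subfamily I had 2.89, 1.65 and 1.64 CPM in mock and 8.16, 6.53 and 5.64 CPM with ABA, again with no overlap, for a log2 change of 1.73 ± 0.19 (adjusted p = 1.04e-07). XTH7 rose by 1.08 in J0571, by 1.65 in J1721 and by 1.24 in Q0990.

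The close copies XTH17 (AT1G65310), XTH18 and XTH19 (AT4G30290), genes known for expression in roots, rose together in every line. XTH19 had 58, 65.8 and 64.8 CPM in C24 mock and 171, 165 and 182 CPM with ABA, a log2 change of 1.46 ± 0.09 (adjusted p = 3.6e-12). XTH17 had 50.8, 53.7 and 50.5 CPM in mock and 130, 131 and 124 CPM with ABA, a change of 1.31 ± 0.07 (adjusted p = 2.14e-13). All ABA libraries of both genes lay above all mock libraries. XTH18 moved less, from 115, 107 and 104 CPM to 156, 167 and 158 CPM (0.56 ± 0.06, adjusted p = 2.01e-07). XTH20 (AT5G48070), which shares 85.7% of its aligned coding bases with XTH17, went the other way. It had 19.2, 30.7 and 29.5 CPM in C24 mock and 10.2, 7.49 and 11.2 CPM with ABA, a log2 change of -1.46 ± 0.24 (adjusted p = 3.03e-05). Mock library 1 was the lowest mock library of XTH20 in C24, and in Q0990 too, where the values were 19.8, 31.6 and 25.9 CPM. Without library 1 of every mock group its log2 change in C24 was -1.64. In Q0990 XTH20 changed by -0.80 ± 0.23 (adjusted p = 0.00972), a call that was lost without Q0990 mock library 2 (-0.62, adjusted p = 0.0685).

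XTH24 (AT4G30270), first described as MERI5 from the meristem, had 24.3, 13.5 and 15 CPM in C24 mock and 42.4, 36.4 and 28.3 CPM with ABA, a log2 change of 1.02 ± 0.20 (adjusted p = 0.000225). The groups did not overlap, and the highest mock value was in library 1. Without library 1 of every mock group the change in C24 was 1.32. XTH21 (AT2G18800), a gene linked to root growth, rose by 0.66 ± 0.08 in C24 and by 0.59 to 0.80 in the driver lines. XTH4, known from secondary growth, rose by 0.89 ± 0.06 in C24 and by 0.61 to 0.80 elsewhere. XTH30 rose by 0.67 ± 0.08 in C24 and by 0.35 to 0.55 elsewhere. XTH27, known from developing vessels of leaves, rose by 0.32 ± 0.07 in C24 and 0.21 to 0.30 elsewhere. In Q0990 its call (adjusted p = 0.0298) was lost when Q0990 mock library 1 (0.0853) or 2 (0.0843) was left out, and likewise for ABA library 1 (0.118) or 2 (0.0692).

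XTH31, which had the highest level per length in mock roots, fell in all 4 lines. In C24 it had 176, 323 and 271 CPM in mock and 78, 79.6 and 76.4 CPM with ABA, a log2 change of -1.72 ± 0.21 (adjusted p = 7.11e-07) or 3.29-fold lower. In Q0990 the mock values were 170, 320 and 319 CPM and the ABA values 81.2, 118 and 90.3 CPM. Mock library 1 was the lowest mock library in both lines, and no ABA library reached it. Without library 1 of every mock group the log2 change was -1.93 in C24 and -1.73 in Q0990. J0571 had 443, 382 and 411 CPM in mock and 103, 133 and 112 CPM with ABA. J1721 had 359, 299 and 342 CPM in mock and 125, 77 and 94.8 CPM with ABA. On the log2 scale J0571 changed by -1.83, J1721 by -1.75 and Q0990 by -1.48, each with an SE of 0.21. XTH32, which shares 68.6% of its aligned coding bases with XTH31, fell from 17.9, 18.9 and 19.2 CPM to 11, 11.4 and 11.7 CPM in C24, by 0.72 ± 0.16 on the log2 scale (adjusted p = 0.00119). J0571 gave -0.83, J1721 -1.02 and Q0990 -1.06.

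XTH2 (AT4G13090), a subfamily I gene with few counts, was lower with ABA. Its C24 libraries held 53 counts in mock and 3 with ABA, a ratio of 17.6 with an exact 95% counting interval of 5.69 to 87.8. In J0571 there were 24 counts in mock and 1 with ABA, a ratio of 25 (4.08 to 1030). The C24 mock libraries were spread, at 0.326, 0.722 and 0.116 CPM, above all ABA libraries (0.0236, 0.0446 and 0 CPM). XTH2 was called lower in C24 (adjusted p = 0.000737), J0571 (adjusted p = 0.00536) and Q0990 (adjusted p = 0.00206), and had a log2 change of -1.24 ± 0.57 in J1721 (adjusted p = 0.113), where its counts were 99 in mock and 40 with ABA.

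**Figure D3:**
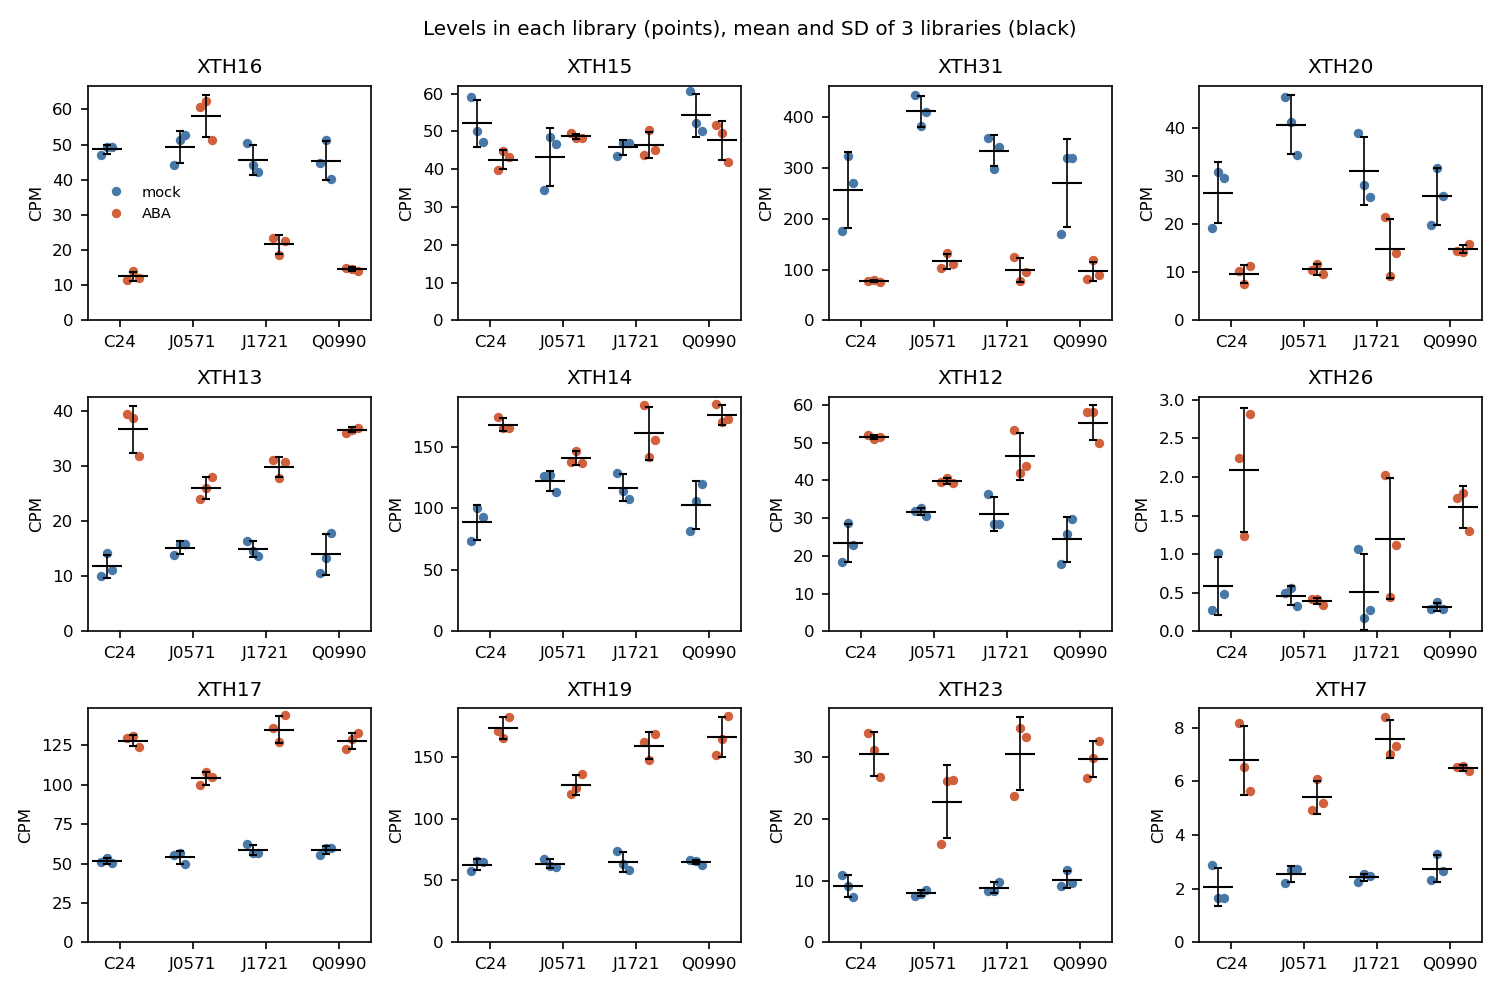
CPM of 12 XTH genes in every library (points; mock blue, ABA orange), with the mean and SD of the 3 libraries of a group in black; each panel has its own axis, starting at 0. XTH16 falls in C24, J1721 and Q0990 but lies at 51.4 to 62.3 CPM in ABA-treated J0571, and the J0571 ABA libraries of XTH12, XTH13 and XTH14 lie below those of C24.

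XTH16 set J0571 apart from the other lines. This subfamily II gene had 47, 49.4 and 49.2 CPM in C24 mock libraries and 11.6, 14 and 12.2 CPM with ABA, a log2 change of -1.94 ± 0.11 (adjusted p = 1.17e-12). In Q0990 it had 44.8, 51.3 and 40.1 CPM in mock and 15, 14.6 and 14.1 CPM with ABA (-1.64 ± 0.11, adjusted p = 2.11e-11). In J1721 it had 50.4, 44.3 and 42.1 CPM in mock and 23.4, 18.6 and 22.7 CPM with ABA (-1.08 ± 0.10, adjusted p = 1.57e-08). In these lines every ABA library lay below every mock library. In J0571 it had 44.3, 51.4 and 52.6 CPM in mock and 60.8, 62.3 and 51.4 CPM with ABA. The J0571 groups overlapped, and the log2 change was 0.23 ± 0.10 with a 95% interval of 0.03 to 0.44 and an adjusted p of 0.0993. The mock levels gave no call, at a log2 difference from C24 of 0.03 ± 0.10 in J0571 and -0.09 ± 0.10 in J1721.

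Among the 29 genes, XTH16 was the only one whose ABA response was called different between lines in the fit reported here. Between J0571 and C24 the response differed by 2.18 ± 0.15 on the log2 scale (adjusted p = 4.82e-09), the smallest p of all 21315 genes, where 0.403% of genes were called. Between J0571 and Q0990 it differed by 1.87 ± 0.15 (adjusted p = 9.89e-08, again the smallest p), where 0.389% were called. Between J0571 and J1721 the difference was 1.31 ± 0.14 (adjusted p = 1.98e-05), where 0.305% were called. J1721 lay between, with a response 0.87 ± 0.15 above that of C24 (adjusted p = 0.0116), where 0.169% were called. That call was lost without J1721 mock library 3 (0.81, adjusted p = 0.0505). The comparison of Q0990 with C24 gave 0.30 ± 0.15 with an interval of 0 to 0.61 (adjusted p = 0.943), and that of J1721 with Q0990 gave 0.56 ± 0.15 with an interval of 0.26 to 0.87 (adjusted p = 0.633). Of all genes, 0% were called in the first of these and 0.0235% in the second, and of the XTH genes 1 and 2 had an unadjusted p under 0.05 by edgeR, while DESeq2 called 0 in either. The 6 comparisons share groups and are not independent.

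XTH15, the nearest copy of XTH16 by coding sequence, had a smaller change. It had 59.1, 50 and 47.1 CPM in C24 mock and 39.8, 44.8 and 43.1 CPM with ABA, a log2 change of -0.29 ± 0.11 (adjusted p = 0.0415), which rests on single libraries. The adjusted p was 0.218 without C24 mock library 1, 0.0538 without mock library 2, 0.147 without ABA library 1 and 0.0748 without ABA library 3, and the change without mock library 1 was -0.19. Its log2 changes of 0.17 in J0571, 0.02 in J1721 and -0.19 in Q0990 were not called. Endodermis markers are given beside these genes. The 5 markers summed to 270 to 306 CPM in C24 mock and 356 to 387 CPM with ABA, and to 237 to 245 and 263 to 291 CPM in J0571, with no marker at 0. Of the 5, 3 rose in C24, 1 in J0571, 2 in J1721 and 1 in Q0990, beside 18.6%, 14.4%, 15.8% and 17.0% of all genes. The J0571 and Q0990 shares are near those of all genes. CASP5, which encodes a Casparian strip membrane protein, rose in all 4 lines and was lower in J0571 than in C24 mock roots, by a log2 difference of -2.54 ± 0.23 (adjusted p = 6.26e-07). The calls of MYB36 in C24 and of CASP1 in C24 and J1721 were lost when single libraries were left out, with adjusted p up to 0.133. Their part in the XTH16 values was not tested.

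**Figure D4:**
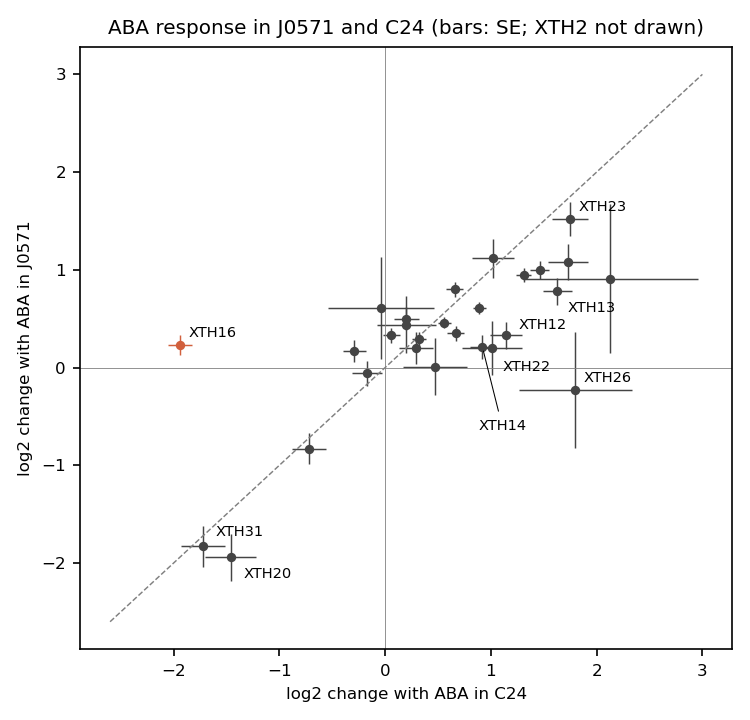
Log2 change with ABA in J0571 (vertical) against that in C24 (horizontal) for 28 tested XTH genes, with SE bars; XTH2 lies off the axes and the dashed line marks equal change. XTH16 (orange) is the gene whose response was called different between the lines. Labelled genes below the dashed line include XTH12, XTH13, XTH14, XTH22, XTH23, XTH26 and XTH31. Others below it include XTH4, XTH7, XTH17, XTH19, XTH27, XTH30 and XTH32, while XTH5, XTH8 and XTH15 lie above it.

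The close copies XTH12 and XTH13 and their relative XTH14 had smaller log2 changes in J0571 than in C24, though the differences missed the threshold. Rises were also smaller in J0571 than in C24 for XTH4, XTH7, XTH17, XTH19, XTH23 and XTH30. XTH13 had 9.99, 14.2 and 11.2 CPM in C24 mock and 39.4, 38.8 and 31.8 CPM with ABA (1.63 ± 0.14, adjusted p = 2.53e-09). In J0571 it had 13.9, 15.9 and 15.9 CPM in mock and 24.1, 26.1 and 28.1 CPM with ABA (0.78 ± 0.14, adjusted p = 0.000127). All ABA libraries lay above all mock libraries in both lines. In J1721 XTH13 rose by 1.01 ± 0.14 and in Q0990 by 1.39 ± 0.14. The J0571 and C24 responses differed by -0.86 ± 0.20, with an interval of -1.26 to -0.45 and an adjusted p of 0.0535, while DESeq2 gave an adjusted p of 0.00373.

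XTH12 had 18.5, 28.6 and 22.9 CPM in C24 mock and 52.1, 51 and 51.4 CPM with ABA, a log2 change of 1.14 ± 0.15 (adjusted p = 1.11e-06). J0571 had 31.9, 32.6 and 30.6 CPM in mock and 39.6, 40.7 and 39.3 CPM with ABA, 0.33 ± 0.14 (adjusted p = 0.103). The ABA libraries were the higher ones in both lines without overlap, and the responses differed by -0.81 ± 0.20 (adjusted p = 0.0973, and 0.0128 by DESeq2). XTH14 had 73.2, 100 and 92.8 CPM in C24 mock and 174, 165 and 165 CPM with ABA (0.92 ± 0.12, adjusted p = 1.13e-06). Its J0571 values were 126, 127 and 113 CPM in mock and 138, 147 and 137 CPM with ABA (0.21 ± 0.12, adjusted p = 0.229), and the responses differed by -0.71 ± 0.17 (adjusted p = 0.0573, and 0.00438 by DESeq2). The J0571 mock libraries of XTH12 and XTH14 lay above all C24 mock libraries, while those of XTH13 overlapped. No mock difference of these genes was called by edgeR, but DESeq2 called that of XTH14 (log2 difference 0.46, adjusted p = 0.0174). C24 mock library 1 was the lowest C24 library for XTH12, XTH13 and XTH14, and Q0990 mock library 1 was the lowest of its line for all 3. Without library 1 of every mock group, the C24 rises were 1.00 for XTH12, 1.53 for XTH13 and 0.80 for XTH14. The J0571 difference from C24 was then called for XTH13 (-0.81, adjusted p = 0.0479) but not for XTH12 or XTH14. XTH12 rose by 0.58 ± 0.14 in J1721 and 1.18 ± 0.15 in Q0990, and XTH14 by 0.46 ± 0.12 and 0.78 ± 0.12. The J1721 responses also lay below those of C24, by a log2 difference of -0.56 ± 0.20 for XTH12, -0.63 ± 0.20 for XTH13 and -0.46 ± 0.17 for XTH14, none of them called (adjusted p of 0.498 to 0.815).

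XTH26, whose product acts in root hair walls, was low in every library. In C24 it had 0.276, 1.01 and 0.486 CPM in mock and 2.24, 1.23 and 2.81 CPM with ABA (1.80 ± 0.53, adjusted p = 0.0101), and without C24 mock library 1 the call was lost (1.47, adjusted p = 0.0505). In Q0990 it had 0.291, 0.376 and 0.289 CPM in mock and 1.73, 1.79 and 1.3 CPM with ABA (2.32 ± 0.57, adjusted p = 0.00267). The ABA libraries lay above the mock libraries in both of these lines. J1721 values overlapped, at 1.07, 0.17 and 0.277 CPM in mock and 2.02, 0.449 and 1.12 CPM with ABA (1.3 ± 0.54, adjusted p = 0.0785). In J0571 the values overlapped too, at 0.503, 0.558 and 0.323 CPM in mock and 0.417, 0.423 and 0.343 CPM with ABA. The J0571 response was -0.23 ± 0.59, and its difference from C24 was -2.03 ± 0.79 (interval -3.66 to -0.40, adjusted p = 0.444).

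Root hair and epidermis markers moved beside these genes. Of the 6 markers, 4 rose in C24, 3 in J1721 and 4 in Q0990, beside 18.6%, 15.8% and 17.0% of all genes. The 3 calls in J1721 (COBL9, PRP3 and LRX1) were each lost without J1721 ABA library 1 (adjusted p of 0.174 to 0.268), mock library 2 (0.12 to 0.141) or mock library 3 (0.0819 to 0.144), and that of COBL9 in Q0990 without ABA library 3 (0.0881) or mock library 2 (0.0505). In J0571, where 24.3% of all genes were called, edgeR called 0 of the 6 markers, and 1 had an unadjusted p under 0.05. Their summed level was 293 to 350 CPM in C24 mock and 459 to 487 CPM with ABA, 377 to 397 and 409 to 439 CPM in J0571, 363 to 422 and 405 to 537 CPM in J1721, and 307 to 386 and 448 to 496 CPM in Q0990, and no marker was at 0. No marker's response was called different between J0571 and C24 by edgeR, and 4 of 6 had an unadjusted p under 0.05. Their part in the XTH12, XTH13, XTH14 and XTH26 values was not tested.

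Xylem markers rose as well. All 5 (VND7, CESA4, CESA7, CESA8 and XCP1) were called higher in C24, by 0.65 to 1.17, and in J0571, by 0.46 to 0.78, while 4 were in Q0990 and 2 in J1721. Of all genes, 18.6% rose in C24, 14.4% in J0571, 17.0% in Q0990 and 15.8% in J1721. Both J1721 calls were lost without J1721 ABA library 2 (adjusted p of 0.121 for CESA8 and 0.0733 for XCP1) or mock library 1 (0.173 and 0.0649), and the J0571 call of VND7 without J0571 ABA library 2 (0.052). Their summed level was 216 to 252 CPM in C24 mock and 417 to 487 CPM with ABA, 247 to 261 and 367 to 432 CPM in J0571, 183 to 211 and 234 to 257 CPM in J1721, and 235 to 272 and 375 to 459 CPM in Q0990, with no marker at 0. The subunits of cellulose synthase for secondary walls had lower responses in J1721 than in C24, the comparison in which XTH16 was also called. The log2 difference was -0.90 ± 0.17 for CESA7 (adjusted p = 0.0227), -0.69 ± 0.14 for CESA4 and -0.83 ± 0.16 for CESA8 (both 0.0283). All 3 calls were lost without C24 ABA library 2, C24 mock library 1, J1721 ABA library 1 or 3, or J1721 mock library 2 or 3, at adjusted p of 0.0574 to 0.13. The CESA4 call was lost without C24 mock library 3 (0.0513), J1721 ABA library 2 (0.0846) or J1721 mock library 1 (0.0575) too, and that of CESA8 without C24 mock library 2 (0.0667).

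Of 3 phloem markers the sucrose transporter gene SUC2 was called, higher in every line by 0.55 to 1.22. Its J1721 call was lost without J1721 mock library 1 (adjusted p = 0.0671), and its Q0990 call without Q0990 ABA library 1 (0.0574) or mock library 2 (0.0746) or 3 (0.0533). Of 4 markers of meristem and division, KNOLLE, a gene for a syntaxin of the cell plate, was called higher in every line by 0.21 to 0.28. Its driver line calls were lost when single libraries were left out, at adjusted p up to 0.19 in J1721. The C24 call of KNOLLE was lost without library 1 of every mock group (0.21, adjusted p = 0.0507) and with only the groups compared (0.27, adjusted p = 0.0521). Of 3 root cap markers edgeR called 0 in the ABA responses, and 1 had an unadjusted p under 0.05, in J1721. Shoot and chloroplast markers gave 2 of 3 tested lower in C24 and 1 in Q0990 (RBCS1A in both), calls that were lost without mock library 1 of the line, at adjusted p of 0.0731 to 0.302. Of all genes, 14.4% (J0571) to 18.6% (C24) rose in a line, 9.87% (J0571) to 15.4% (C24) fell, and 10.1% rose in all 4 lines. The part of these cell types in the XTH values was not tested.

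XTH22 (AT5G57560), the touch gene TCH4, had 1.86, 1.32 and 1.5 CPM in C24 mock and 3.56, 3.23 and 2.62 CPM with ABA, a log2 change of 1.01 ± 0.28 (adjusted p = 0.00656) with no overlap. In J1721 it rose by 0.79 ± 0.28 (adjusted p = 0.0351), a call lost without ABA library 2 (adjusted p = 0.243), mock library 1 (0.0686) or mock library 3 (0.138) of that line. XTH22 had changes of 0.20 ± 0.28 in J0571 and 0.49 ± 0.28 in Q0990 that were not called. Of 6 tested touch response genes other than XTH22, 1 rose in C24, 1 in J0571, 2 in J1721 and 1 in Q0990, where 1 fell. Of all genes, 18.6% rose in C24, 14.4% in J0571, 15.8% in J1721 and 17.0% in Q0990, where 14.2% fell. The touch gene shares in C24, J0571 and Q0990 are near those of all genes. WRKY33 rose in each line, by 0.44 in J0571, 0.52 in J1721 and 0.44 in Q0990 and by 0.32 ± 0.11 in C24. ZAT10 rose by 0.92 ± 0.25 in J1721 (adjusted p = 0.00637). TCH3, a gene for a calmodulin-like protein, fell by 1.07 ± 0.37 in Q0990 (adjusted p = 0.03), a call that was lost without any 1 of 5 of the 6 Q0990 libraries, all but mock library 1 (0.053 to 0.0877). For WRKY33 the C24 call was lost without C24 ABA library 1 (adjusted p = 0.12), mock library 2 (0.146) or mock library 3 (0.0528). XTH5 and XTH8 of subfamily I were called higher in J0571 (0.50 ± 0.12 and 0.33 ± 0.08) and not in the other lines, where their changes were 0.19 to 0.28 and 0.03 to 0.07. Their difference between lines was not called in any comparison. XTH29, a gene with few counts, had 0.125, 0.0412 and 0.162 CPM in C24 mock and 0.33, 0.468 and 0.644 CPM with ABA, which did not overlap but missed the threshold (2.13 ± 0.83, adjusted p = 0.0515).

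Few XTH genes were called between the mock roots of the lines. XTH21 was the only member called between J0571 and C24 mock roots, where 0.474% of all genes were called. It had 24, 27.7 and 25.2 CPM in J0571 and 35.4, 31.4 and 33.2 CPM in C24, without overlap, a log2 difference of -0.38 ± 0.08 (adjusted p = 0.0304). That call held in 7 of 13 settings, with adjusted p from 0.00299 to 0.485, and was lost without library 1 of every mock group (-0.29, adjusted p = 0.485). Also lost was the call without C24 mock library 1 (0.211), C24 mock library 3 (0.0789), J0571 mock library 1 (0.2) or J0571 mock library 3 (0.0936), each an adjusted p. XTH31 was at 412 ± 30.7 CPM in J0571 mock and 257 ± 74.3 CPM in C24 mock, without overlap, a log2 difference of 0.68 ± 0.21 that was not called (adjusted p = 0.165). No member was called in J1721 or Q0990 against C24, where 0.0422% and 0.0469% of all genes were called. Of the 29 members, 4 and 2 had an unadjusted p under 0.05 there by edgeR, and DESeq2 called 0 in either.

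Other genes of the xyloglucan pathway were counted in the same fit. Of 13 tested genes for xyloglucan synthesis, 4 rose in C24, where 18.6% of all genes did, with a median log2 change of 0.11. CSLC12, which encodes a glucan synthase of the xyloglucan backbone, had 11.3, 15 and 12.1 CPM in C24 mock and 24.3, 23.3 and 25.1 CPM with ABA (0.92 ± 0.11, adjusted p = 2.39e-07). In J0571 it had 15.3, 13 and 13.9 CPM in mock and 14.7, 15.8 and 15.4 CPM with ABA, and its response differed from C24 by -0.80 ± 0.15 (adjusted p = 0.00882), a call lost without library 1 of every mock group (-0.66, adjusted p = 0.0622). CSLC4, a paralogue of CSLC12, rose by 0.35 in C24. XLT2 and XXT1, genes for side chain transferases, rose by 0.40 and 0.29, and both calls were lost when single libraries were left out. For XLT2 these were C24 ABA library 1 (adjusted p = 0.137) or 2 (0.0534) and C24 mock library 2 (0.0853) or 3 (0.0624), and for XXT1 C24 ABA library 2 (0.0502) or mock library 3 (0.0606). The numbers that rose were 2 in J0571, 4 in J1721 and 6 in Q0990, beside 14.4%, 15.8% and 17.0% of all genes, and 1 fell in J1721. The J0571 share is near that of all genes. Of 3 genes for xyloglucan breakdown, BGAL10, a beta-galactosidase, fell by 0.46 ± 0.09 and FUC95A, a fucosidase, rose by 0.38 ± 0.08 in C24. Every driver line had 1 that rose and 1 that fell. Beside these falls, 15.4% of all genes fell in C24, 9.87% in J0571, 12.7% in J1721 and 14.2% in Q0990.

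Expansins, wall-loosening proteins that do not cut xyloglucan, were split. Of 20 tested genes, 7 rose and 6 fell in C24, 2 and 4 in J0571, 4 and 8 in J1721, and 6 and 8 in Q0990. Of all genes, 18.6% rose and 15.4% fell in C24, 14.4% and 9.87% in J0571, 15.8% and 12.7% in J1721, and 17.0% and 14.2% in Q0990. The 2 of 20 that rose in J0571 are near the share of all genes. EXPA16 rose by 3.86 ± 0.55 in C24 and EXPA10 by 0.90 ± 0.24, while EXPB3 had a log2 change of -0.88 ± 0.19. EXPA8 had 3.74, 3.4 and 4.58 CPM in C24 mock and 2.03, 2.27 and 1.89 CPM with ABA, and in J0571 4.04, 3.91 and 3.72 CPM in mock and 4.84, 4.36 and 5.4 CPM with ABA. The C24 groups parted downward and the J0571 groups upward, and the responses differed by 1.24 ± 0.27 (adjusted p = 0.0346). That call was lost when any 1 of 9 of the 12 libraries compared was left out (all but C24 ABA library 2, C24 mock library 2 and J0571 ABA library 2), at 1.12 to 1.27 and adjusted p of 0.0591 to 0.12. It was also lost with the replicate block (adjusted p = 0.056) and without library 1 of every mock group (adjusted p = 0.104). Of 9 genes for cellulose of the primary wall, 3 fell in C24, 6 in J0571, 3 in J1721 and 3 in Q0990, beside 15.4%, 9.87%, 12.7% and 14.2% of all genes. CESA2 fell by 0.59 ± 0.08, CESA5 by 0.30 ± 0.07 and COB by 0.27 ± 0.06 in C24.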

How the data were processed

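The deposited table holds the authors' raw read counts, 1 column for each of 24 libraries. HISAT2 and HTSeq are named in the submitters' processing notes. Their versions, the genome build and annotation of the counting, its strand setting and its handling of reads with several matches are not given in sources used here, and close copies and overlapping genes may share reads. RNA was taken with RNeasy columns and sequenced from paired-end libraries of a NEBNext Ultra kit, per the labels' protocols. Of 34218 features, 32548 matched a TAIR10.1 locus. All count columns belonged to 1 of the 24 libraries.

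Library sizes were scaled by edgeR's TMM method, and counts were tested in 1 fit of 8 group means with edgeR 4.0.16 (limma 3.58.1, R 4.3.3) after its filter on low counts, which left 21315 genes. Adjusted p-values are over all of these in each of 13 comparisons, which were the ABA response in 4 lines, its difference in 6 pairs of lines, and the mock level of 3 driver lines against C24. The fit was tested on simulated data. CPM uses the normalized library sizes, log2 changes carry the SE of the fit, and counting intervals cover counting error only. Replicates differed by more than counting noise, with chi-square over degrees of freedom of 6.79 to 34.8, so none was a copy of another. Any of the 33 members could be named. Library values are given for members called in C24 whose log2 change was 1 or more in either direction, for members called between lines or in mock, and for the 3 highest per length. Of each related list up to 4 genes called in C24 with the largest changes were named, plus genes called between lines. XTH5, XTH14, XTH15, XTH29, XTH32, ZAT10, TCH3 and marker genes were given values because of what these showed. The members and lists were chosen with earlier results of these data known. Alternatives were DESeq2 1.42.0, its size factors in edgeR, no filter, only the groups compared, a replicate block, each library left out, and library 1 of every mock group left out. Few samples with the same replicate number deviated together: 7 of 84 correlations were over 0.1 (range -0.237 to 0.197). The main fit therefore did not pair samples by number. These correlations do not test for an effect shared by only some libraries or genes. Mock library 1 of C24 and of Q0990 both scored high on the second principal component (40.4 and 27.4). Coding sequences were aligned with Biopython (match 1, mismatch -1, gap opening -3, gap extension -0.5), and upstream stretches were read by locus from the TAIR10.1 genome, since the count table holds no coordinates.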

Additional observations from a re-analysis of the deposited data

Results flagged for a closer look

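The ABA response of XTH16 was called different between lines in 4 comparisons, which share libraries and are not independent. The log2 difference was 2.18 for J0571 against C24, 1.87 for J0571 against Q0990, 1.31 for J0571 against J1721 and 0.87 for J1721 against C24, by edgeR's test of the interaction. Over 19 settings the first stayed between 2.09 and 2.26 and was called in all 19, and so were the J0571 comparisons with Q0990 (1.78 to 1.96) and J1721 (1.16 to 1.39). J1721 against C24 ranged from 0.80 to 0.97 and was called in 18 of 19.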

How the results depend on the processing

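Over 7 kinds of alternative, 982 values were recomputed for the calls of named members. Of these 958 kept their direction and stayed past the threshold, 24 kept their direction and lost the call, and 0 reversed. The lost calls were those of XTH15 and XTH26 in C24, XTH22 in J1721, XTH20 and XTH27 in Q0990, XTH16 between J1721 and C24, and XTH21 in mock roots. With the replicate block all 80 calls were kept, as under DESeq2, its size factors and no filter. The block kept the difference of XTH16 between J0571 and C24 at 2.18. The numbers of members called in the ABA responses stayed within 1.5 times in every alternative run. The number called between J0571 and C24 was 1 and became 3 with DESeq2's size factors, 4 with no filter, 3 without library 1 of the mock groups, 4 with only the groups compared, 6 with DESeq2 and 1 to 4 with 1 library left out. The members added were XTH12, XTH13, XTH14, XTH17, XTH19 and XTH30, all with weaker rises in J0571. Between J1721 and C24 it was 1, and 0 to 1 with 1 library left out. Between J0571 and Q0990 it was 1, and became 2 with no filter, 4 with only the groups compared, 2 with DESeq2 and 1 to 3 with 1 library left out. For mock roots of J0571 against C24 it was 1, and became 0 without library 1 of the mock groups, 0 with only the groups compared, 2 with DESeq2 and 0 to 1 with 1 library left out. The member that DESeq2 added there was XTH14. The cause of these moves was not tested. For 70 calls of 32 genes of the related and marker lists, 754 of 870 values kept the call, 116 lost it and 0 reversed. With the replicate block EXPA8 lost its difference between J0571 and C24 (1.23, adjusted p = 0.056) and KNOLLE its rise in J1721 (0.21, adjusted p = 0.0541). Genes with few counts, such as XTH2, XTH26 and XTH29, have wide errors.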
